A study of Mus musculus with 8 samples.

Results

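C-type lectin receptors are surface proteins that recognise sugars and other ligands of microbes and damaged cells. The set described here holds 10 of them, all C-type lectins of myeloid and dendritic cells other than Clec9a: Clec4a2, Clec4b1, Clec5a, Cd209a, Clec7a, Clec10a, Clec12a, Clec4d, Clec4e and Clec4n. They were chosen by name, and each had 1 probe set annotated with its symbol alone, so that 10 of the 19938 genes measured belong to the set. Their messenger RNA was read on Affymetrix arrays from progenitors of dendritic cells, taken from the bone marrow of mice and sorted into 4 populations, with 2 arrays each. The populations were Id2-GFP+ pre-CD8, Id2-GFP- pre-CD8, Id2-GFP+ CDP and Id2-GFP- CDP. CDP stands in the field for common dendritic cell progenitor. Pre-CD8 is a name of the labels, which do not define it further. The GFP classes refer to a green reporter of Id2, a helix-loop-helix protein that antagonises E proteins.

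Titles, sources and descriptions name an Id2-IRES-GFP reporter mouse for all 8 samples. The genotype field gives heterozygous Id2-IRES-GFP for both Id2-GFP- CDP samples and heterozygous Zbtb46-GFP for the other 6, a conflict that the labels do not settle. Groups were taken from the titles. Sort gates, age, sex, strain and any pooling of animals are not given in the labels, and nothing there says that replicates came from separate mice. The p-values therefore reflect how far the 2 arrays of a group differ, a spread that may be technical. The fit pools that spread over all groups and draws it towards that of genes of like intensity. A p-value is thus not a measure of the spread of only the 2 groups compared.

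The Id2 transcript followed the labels. Its log2 intensity was 10.69 and 11.00 in Id2-GFP+ pre-CD8, against 5.90 and 7.18 in Id2-GFP- pre-CD8, and 9.77 and 9.26 in Id2-GFP+ CDP, against 5.14 and 6.30 in Id2-GFP- CDP. Flt3, the cytokine receptor that dendritic progenitors carry, lay between 10.73 and 12.58 on all 8 arrays. Csf1r, a receptor used in the gating of the common dendritic cell progenitor, was 8.09 and 7.93 in Id2-GFP+ pre-CD8, against 9.30 and 8.90 in Id2-GFP- pre-CD8, and 10.14 and 10.53 in Id2-GFP+ CDP, against 11.11 and 10.97 in Id2-GFP- CDP. By mean intensity the arrays formed 2 sets, the brighter at 461 to 478 and the dimmer at 402 to 414, each with 1 array of every group. The labels name no batch, so the split is known only from the values. Adjusted p-values with the set as a block stand beside the receptor calls that the block changes. The block was taken from the same intensities that are tested, so these p-values may be too small.

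As a guide to the dim end of the array, the mean log2 intensities of 1027 olfactory receptor genes had a median of 4.08 and a 95th percentile of 5.63. No detection call was made, and intensities of different probe sets do not give relative amounts of transcript. Values under that percentile may be background, so a difference that involves such an array is given on the log2 scale with no fold.

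Several of the 10 genes lie in 2 runs on mouse chromosome 6, each cut here at its outermost members of the set. Related genes lie beyond the cuts: Clec4a4 before Clec4b1, Clec2m before Clec12a and Olr1 after Clec7a. The Dectin-2 run holds Clec4b1, Clec4a2, Clec4b2, Clec4n, Clec4d and Clec4e in that order among protein-coding genes. The Dectin-1 run holds Clec12a, Clec12b, Clec1b, Clec9a, Clec1a and Clec7a. Clec5a lies elsewhere on chromosome 6, Clec10a lies next to Mgl2 on chromosome 11, and Cd209a lies between Clec4g and Cd209e on chromosome 8. The receptors signal in different ways. Clec4b1, Clec4d, Clec4e, Clec4n and Clec5a lack a signalling motif of their own and couple to the adaptors Fcer1g or Tyrobp, whose ITAM motifs recruit the kinase Syk. Clec7a carries its own half-ITAM and also recruits Syk, while Clec4a2 and Clec12a carry an ITIM, an inhibitory motif that recruits phosphatases such as Ptpn6. Neighbouring paralogs are alike in sequence, so probes of Clec4a2 and Clec4b1 in particular may respond in part to related transcripts.

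RefSeq promoter sequences on build GRCm38.p6 matched 8 of the 10 genes, all but Clec10a and Clec4n. Each window is the 250 bases before an annotated gene start, written 5′ to 3′ on the gene's strand. The 5 windows below belong to the genes that passed in a reporter or stage comparison and have a window. Capitals mark GAGGAA or its reverse complement TTCCTC, the core of the PU-box bound by the myeloid factor PU.1. The window of Clec4a2 is chr6:123122440-123122689 on the plus strand, and that of Clec4b1 is chr6:123049712-123049961 on the plus strand. The windows of Clec5a (chr6:40585806-40586055), Cd209a (chr8:3748985-3749234) and Clec7a (chr6:129472786-129473035) are on the minus strand.
Clec4a2: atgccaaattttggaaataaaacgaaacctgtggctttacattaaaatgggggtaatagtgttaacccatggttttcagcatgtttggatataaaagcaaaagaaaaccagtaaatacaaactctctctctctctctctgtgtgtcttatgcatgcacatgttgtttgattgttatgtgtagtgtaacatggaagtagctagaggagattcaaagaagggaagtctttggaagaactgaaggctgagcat
Clec4b1: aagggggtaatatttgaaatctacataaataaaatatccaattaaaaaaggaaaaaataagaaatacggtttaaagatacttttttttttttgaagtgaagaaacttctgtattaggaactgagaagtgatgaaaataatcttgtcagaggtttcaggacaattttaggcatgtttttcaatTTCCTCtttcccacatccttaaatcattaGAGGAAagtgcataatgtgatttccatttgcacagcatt
Clec5a: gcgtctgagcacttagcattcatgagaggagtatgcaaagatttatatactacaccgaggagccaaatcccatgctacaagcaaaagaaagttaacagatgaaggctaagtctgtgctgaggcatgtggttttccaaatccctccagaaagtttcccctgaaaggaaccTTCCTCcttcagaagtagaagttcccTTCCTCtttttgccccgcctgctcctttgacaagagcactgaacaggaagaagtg
Cd209a: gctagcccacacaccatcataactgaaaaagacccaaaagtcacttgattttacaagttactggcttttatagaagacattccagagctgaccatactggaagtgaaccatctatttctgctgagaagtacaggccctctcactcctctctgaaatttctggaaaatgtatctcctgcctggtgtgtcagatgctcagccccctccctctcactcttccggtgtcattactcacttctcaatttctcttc
Clec7a: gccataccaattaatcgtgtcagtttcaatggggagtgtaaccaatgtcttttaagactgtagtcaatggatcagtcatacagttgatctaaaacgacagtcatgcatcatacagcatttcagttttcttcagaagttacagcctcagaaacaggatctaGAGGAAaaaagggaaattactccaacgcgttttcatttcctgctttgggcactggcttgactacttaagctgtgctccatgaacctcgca

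The motif search covered both strands of these windows. GAGGAA was found in 23.3% of the 32851 promoter windows of the same length. Clec4b1 held it at 2 places, 68 and 39 bases before the start, and Clec5a at 2 places, 81 and 55 bases before the start. The window shown for Clec7a held it once, 90 bases before the start, and a second RefSeq window of that gene, shifted by a few bases, held the same site. Clec12a (61 and 47 bases), Clec4e (123 and 56 bases) and Clec4d (240 bases) also held it, while Clec4a2 and Cd209a did not hold these letters. CAGNTG, an E-box form found in 44.8% of all windows, was present once each in Clec5a, Cd209a and Clec7a. TGANTCA, an AP-1 form found in 6.75% of windows, was present in Clec12a. Clec4a2 held none of the 3 motifs. A match describes letters in a window, not a bound site.

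In pre-CD8, 4 of the 10 receptor genes were higher in Id2-GFP+ cells past the threshold (limma, Benjamini-Hochberg adjusted p under 0.05 over 19938 genes) and 0 were lower. Of all genes tested there, 3.57% were called higher. The 4 were Clec4b1, Cd209a, Clec4a2 and Clec5a. In CDP, 3 of the 10 were called higher (Clec4a2, Clec5a and Clec4b1) and 0 lower, where 0.597% of all genes were called higher. With the brightness set as a block, 5 of the 10 were higher in pre-CD8 (11.0% of all genes), Clec7a being added. The block gave 5 of 10 higher in CDP (3.69% of all genes), adding Cd209a and Clec4e, in a fit that called 735 genes higher and 831 lower there. The median difference over the 10 genes was 0.61 on the log2 scale in pre-CD8 and 0.78 in CDP, against -0.008 and -0.002 over all genes tested. In these bulk samples, fewer cells expressing a receptor and less RNA per cell cannot be told apart.

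**Figure D1:**
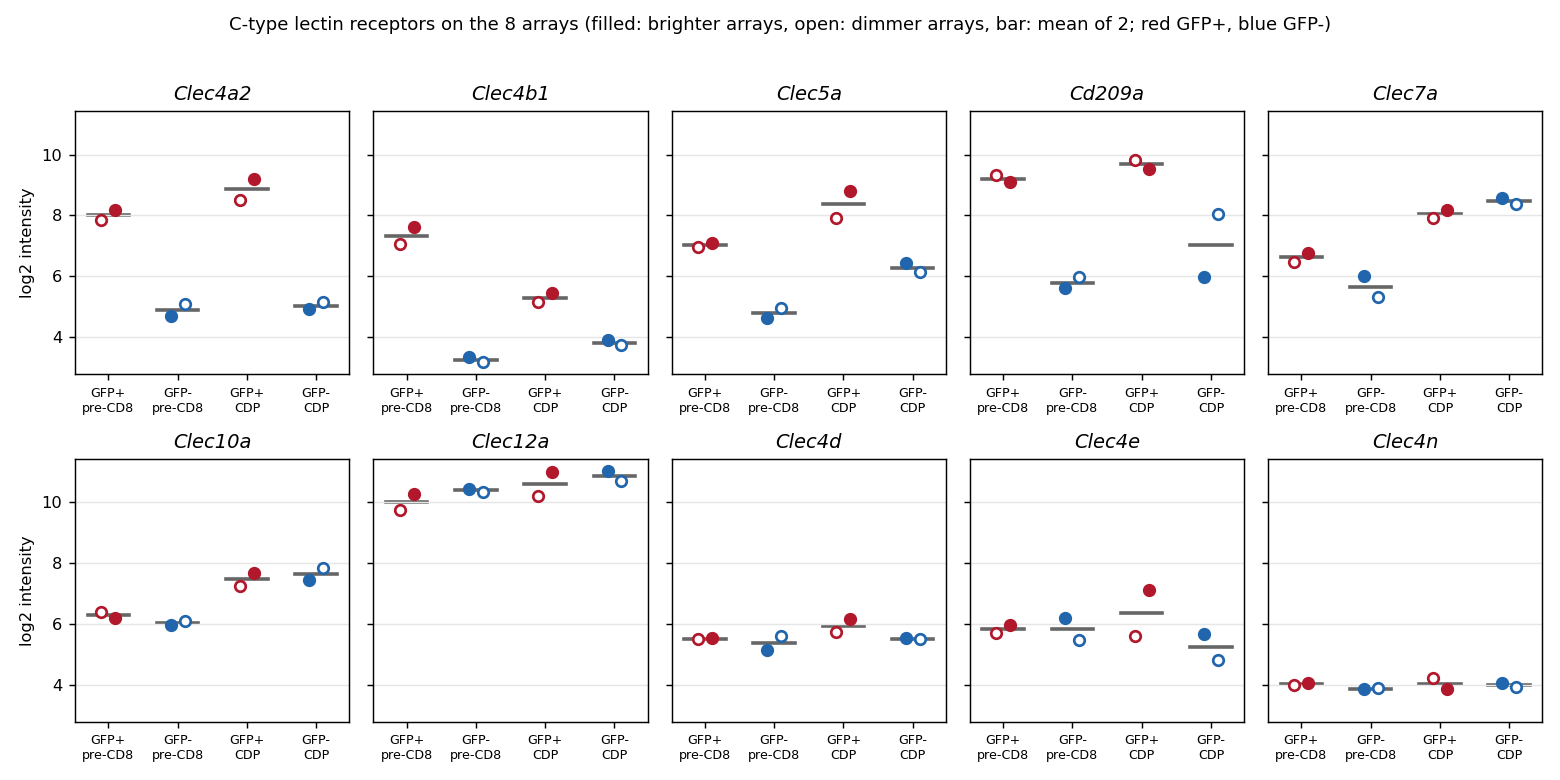
Log2 intensity of the 10 receptor genes on every array, with the groups Id2-GFP+ pre-CD8, Id2-GFP- pre-CD8, Id2-GFP+ CDP and Id2-GFP- CDP from left to right. Points are arrays (filled for the brighter set, open for the dimmer set) and bars are means of 2 arrays. Clec4a2 sits between 7.84 and 9.20 in the Id2-GFP+ groups and between 4.67 and 5.14 in the Id2-GFP- groups, while Clec7a and Clec10a separate pre-CD8 from CDP.

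Clec4a2 encodes DCIR, an ITIM receptor that restrains dendritic cell responses. Arrays gave it log2 intensities of 7.84 and 8.19 in Id2-GFP+ pre-CD8, against 4.67 and 5.07 in Id2-GFP- pre-CD8, and 8.50 and 9.20 in Id2-GFP+ CDP, against 4.90 and 5.14 in Id2-GFP- CDP. All 4 Id2-GFP+ arrays were above all 4 Id2-GFP- arrays, and the Id2-GFP- arrays lay under the olfactory 95th percentile. The reporter difference was 3.14 ± 0.28 (log2 ± SE, adjusted p = 0.000859) in pre-CD8 and 3.83 ± 0.28 (adjusted p = 0.000989) in CDP. Within the brighter and the dimmer arrays it was 3.52 and 2.76 in pre-CD8, and 4.30 and 3.36 in CDP. Both calls held without any 1 of the 8 arrays and in all 7 alternative settings. Between stages no call was made: the pre-CD8 minus CDP difference was -0.84 ± 0.28 (adjusted p = 1.0) in Id2-GFP+ cells and -0.15 ± 0.28 (adjusted p = 1.0) in Id2-GFP- cells. By mean level the order was Id2-GFP+ CDP, Id2-GFP+ pre-CD8, Id2-GFP- CDP and Id2-GFP- pre-CD8. In that order, the first pair and the last pair did not differ past the threshold.

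Clec4b1 encodes DCAR, an activating receptor that signals through Fcer1g, and its gene is the one next to Clec4a2. The log2 intensity of Clec4b1 was 7.07 and 7.60 in Id2-GFP+ pre-CD8, against 3.34 and 3.17 in Id2-GFP- pre-CD8, and 5.16 and 5.43 in Id2-GFP+ CDP, against 3.91 and 3.72 in Id2-GFP- CDP. Id2-GFP+ pre-CD8 stood above every other array, Id2-GFP+ CDP came next, and all 4 Id2-GFP- arrays were under the olfactory median. The Id2-GFP+ CDP arrays were also under the olfactory 95th percentile. The reporter difference was 4.08 ± 0.21 (adjusted p = 0.000161) in pre-CD8, a call that held without any 1 array. In CDP it was 1.49 ± 0.21 (adjusted p = 0.0229), a call lost without replicate 1 (adjusted p = 0.129) or 2 (0.156) of Id2-GFP- CDP, without replicate 2 of Id2-GFP+ CDP (0.148), or with the replicate number as a block (0.0574). The brighter and the dimmer arrays gave 4.27 and 3.90 in pre-CD8, and 1.53 and 1.44 in CDP.

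The reporter difference of Clec4b1 was larger in pre-CD8 than in CDP. The interaction was 2.60 ± 0.29 on the log2 scale (adjusted p = 0.021), and 1 of the 10 receptors passed in that contrast, in which 0.0351% of all genes were called higher. Without any 1 of the 8 arrays it no longer passed, with an adjusted p between 0.0559 and 0.0976 and a value between 2.34 and 2.86. It also missed the threshold with the replicate number as a block (adjusted p = 0.0791). With the brightness set as a block the adjusted p was 4.39e-05, and 2 of the 10 passed as higher (4.09% of all genes), the other being Clec7a. Within Id2-GFP+ cells the pre-CD8 minus CDP difference was 2.04 ± 0.21, which missed the threshold (adjusted p = 0.0577) and passed with the brightness set as a block (5.06e-05), after quantile normalization (0.0201) and after centring arrays on their median (0.0287). In Id2-GFP- cells the same stage difference was -0.56 ± 0.21 (adjusted p = 0.374, and 0.0149 with the block).

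Clec5a encodes MDL-1, a receptor of myeloid cells that signals through Tyrobp. It had log2 intensities of 6.96 and 7.10 in Id2-GFP+ pre-CD8, against 4.63 and 4.97 in Id2-GFP- pre-CD8, and 7.92 and 8.80 in Id2-GFP+ CDP, against 6.42 and 6.13 in Id2-GFP- CDP. The 4 groups did not overlap, with Id2-GFP+ CDP on top and Id2-GFP- pre-CD8 at the bottom. The reporter difference was 2.23 ± 0.29 (adjusted p = 0.00388) in pre-CD8, held without any 1 array. The Id2-GFP- pre-CD8 arrays lay under the olfactory 95th percentile. In CDP it was 2.09 ± 0.29 (4.25-fold, adjusted p = 0.0234), lost without replicate 1 (adjusted p = 0.129) or 2 (0.161) of Id2-GFP- CDP, or without replicate 2 of Id2-GFP+ CDP (0.0755). The brighter and the dimmer arrays gave 2.47 and 2.00 in pre-CD8, and 2.38 and 1.79 in CDP. The pre-CD8 minus CDP difference was -1.47 ± 0.29 (adjusted p = 0.0545, and 0.00139 with the brightness set as a block) in Id2-GFP- cells and -1.33 ± 0.29 (adjusted p = 0.5, and 0.0139 with the block) in Id2-GFP+ cells. The first of these also passed without replicate 1 (0.017) or 2 (0.0169) of Id2-GFP+ CDP, after quantile normalization (0.00556), after centring on the median (0.031) and with dim genes left out (0.0302). The interaction was 0.14 ± 0.41 (adjusted p = 1.0), so no difference between the stages in the reporter effect was detectable with 2 arrays a group.

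Cd209a is a mouse homologue of the human receptor DC-SIGN, which binds mannose and fucose sugars. Its log2 intensity was 9.32 and 9.11 in Id2-GFP+ pre-CD8, against 5.60 and 5.96 in Id2-GFP- pre-CD8, and 9.83 and 9.53 in Id2-GFP+ CDP, against 5.98 and 8.06 in Id2-GFP- CDP. The Id2-GFP- CDP arrays stood apart from each other: replicate 1 was near the Id2-GFP- pre-CD8 arrays and replicate 2 lay between them and the Id2-GFP+ arrays. In pre-CD8 the reporter difference was 3.43 ± 0.56 (adjusted p = 0.00929), with replicate 1 of Id2-GFP- pre-CD8 under the olfactory 95th percentile. It no longer passed without replicate 1 of Id2-GFP- pre-CD8 (adjusted p = 0.0507) or replicate 2 of Id2-GFP+ pre-CD8 (0.0546). In CDP the difference was 2.66 ± 0.56 (6.32-fold) and did not pass (adjusted p = 0.139). It was 3.70 (adjusted p = 0.0035) without Id2-GFP- CDP replicate 2, 1.62 (adjusted p = 0.189) without Id2-GFP- CDP replicate 1, and passed with the brightness set as a block (adjusted p = 0.00172). The brighter and the dimmer arrays gave 3.50 and 3.35 in pre-CD8, and 3.55 and 1.77 in CDP. The stage difference in Id2-GFP- cells was -1.24 ± 0.56 (adjusted p = 0.582, and 0.0464 with the block). Without replicate 1 of Id2-GFP- CDP it was -2.27 and passed (adjusted p = 0.0315).

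**Figure D2:**
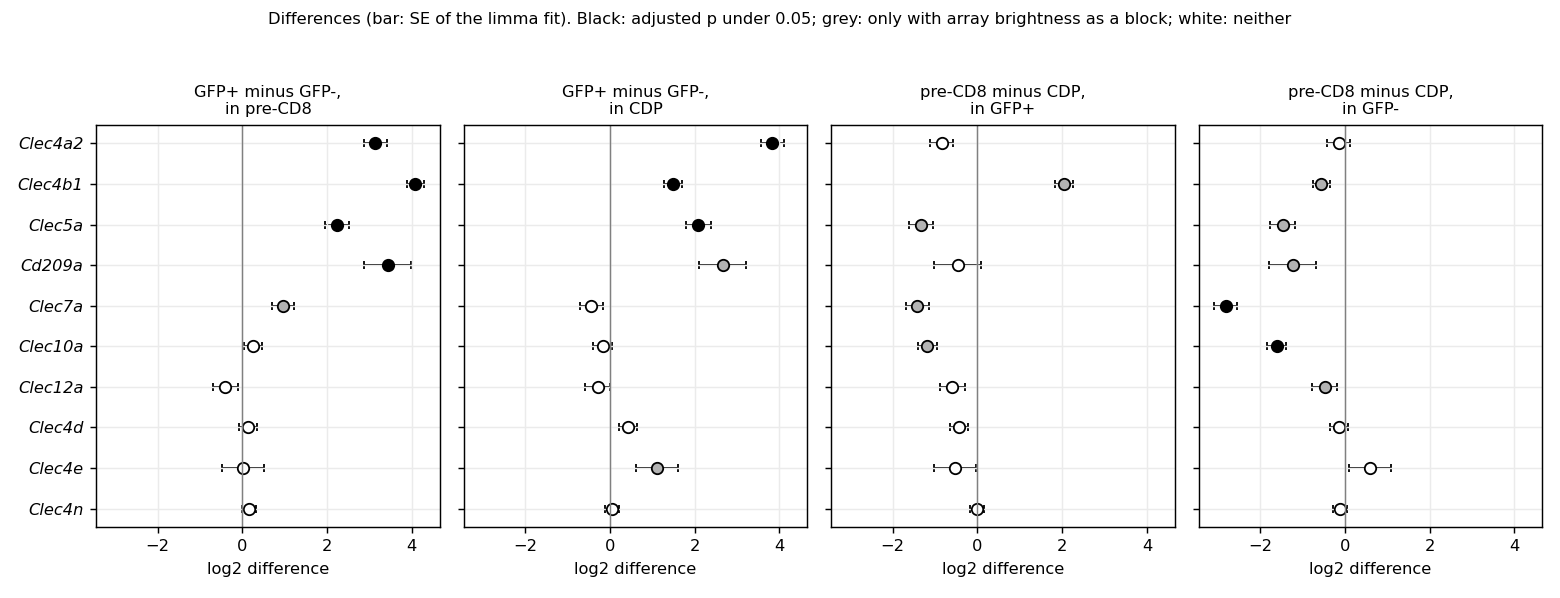
Log2 differences of the 10 receptor genes in 4 comparisons, with bars for the SE of the limma fit. Black points passed an adjusted p of 0.05, grey points passed only with array brightness as a block, and white points passed in neither fit. The reporter differences of Clec4a2, Clec4b1 and Clec5a are black in both stages, that of Cd209a is black in pre-CD8 (3.43) and grey in CDP (2.66), and the stage differences of Clec7a (-2.82) and Clec10a (-1.61) are black in Id2-GFP- cells.

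Among Id2-GFP- cells, 2 of the 10 receptor genes, Clec7a and Clec10a, were lower in pre-CD8 than in CDP, and 0 were higher. Of all genes, 0.592% were called lower in that comparison. Among Id2-GFP+ cells 0 of the 10 passed by limma, in a comparison where 0.0% of all genes passed. There 643 of 19938 genes had an unadjusted p under 0.05. That share is below the 0.05 that no difference would give on average. With the brightness set as a block, 6 of 10 were lower in pre-CD8 among Id2-GFP- cells (6.65% of all genes), and 3 of 10 were lower and 1 higher among Id2-GFP+ cells (1.1% and 0.973% of all genes).

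Clec7a encodes Dectin-1, the receptor for fungal beta-glucans. On the log2 scale it had 6.47 and 6.76 in Id2-GFP+ pre-CD8, against 6.01 and 5.30 in Id2-GFP- pre-CD8, and 7.90 and 8.17 in Id2-GFP+ CDP, against 8.58 and 8.36 in Id2-GFP- CDP. All 4 CDP arrays were above all 4 pre-CD8 arrays, and the reporter classes did not keep the same order at the 2 stages. In Id2-GFP- cells the pre-CD8 minus CDP difference was -2.82 ± 0.27 (adjusted p = 0.00254), held without any 1 array and in all 7 alternative settings. Replicate 2 of Id2-GFP- pre-CD8 lay under the olfactory 95th percentile. The difference was -2.57 within the brighter arrays and -3.06 within the dimmer ones. In Id2-GFP+ cells the stage difference was -1.42 ± 0.27 (adjusted p = 0.278, and 0.00103 with the brightness set as a block). The reporter difference was 0.96 ± 0.27 in pre-CD8 (adjusted p = 0.0815) and -0.44 ± 0.27 in CDP (adjusted p = 1.0). The pre-CD8 value passed after quantile normalization (0.0216), after centring on the median (0.027), with dim genes left out (0.0443) and with the brightness set as a block (0.00069). The interaction was 1.40 ± 0.38 (adjusted p = 0.313, and 0.00252 with the block).

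Clec10a encodes MGL1, a lectin for galactose and N-acetylgalactosamine. Log2 intensities of Clec10a were 6.38 and 6.18 in Id2-GFP+ pre-CD8, against 5.95 and 6.10 in Id2-GFP- pre-CD8, and 7.25 and 7.69 in Id2-GFP+ CDP, against 7.45 and 7.83 in Id2-GFP- CDP. The stages did not overlap, and within CDP the reporter classes did. In Id2-GFP- cells the pre-CD8 minus CDP difference was -1.61 ± 0.22 (3.06-fold lower in pre-CD8, adjusted p = 0.0128). It no longer passed without replicate 2 of Id2-GFP- CDP (adjusted p = 0.118), or without replicate 1 (0.0829) or 2 (0.0592) of Id2-GFP- pre-CD8. In Id2-GFP+ cells the difference was -1.19 ± 0.22 (adjusted p = 0.278, and 0.00819 with the brightness set as a block). The reporter difference was 0.25 ± 0.22 in pre-CD8 and -0.17 ± 0.22 in CDP, neither past the threshold. Mgl2, the neighbouring paralog that encodes MGL2, had stage differences of -1.01 ± 0.33 in Id2-GFP- cells (adjusted p = 0.286) and -0.94 ± 0.33 in Id2-GFP+ cells (adjusted p = 1.0).

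Clec12a encodes MICL, an ITIM receptor that senses uric acid crystals of dead cells. Its log2 intensity was 9.74 and 10.27 in Id2-GFP+ pre-CD8, against 10.45 and 10.36 in Id2-GFP- pre-CD8, and 10.21 and 10.99 in Id2-GFP+ CDP, against 11.05 and 10.72 in Id2-GFP- CDP. The values of its 8 arrays spanned 1.31 on the log2 scale, and none of the 7 contrasts called it. Its differences ran from -0.88 ± 0.30 (Id2-GFP+ pre-CD8 against Id2-GFP- CDP, adjusted p = 0.287) to -0.12 ± 0.42 (interaction, adjusted p = 1.0). With the brightness set as a block, that first difference (adjusted p = 0.00165) and the pre-CD8 minus CDP difference in Id2-GFP- cells (-0.48, adjusted p = 0.0466) passed.

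The last 3 receptors are the adaptor-coupled neighbours at the end of the Dectin-2 run. Clec4n encodes Dectin-2, a receptor for fungal mannans, and Clec4e and Clec4d encode Mincle and MCL, which bind mycobacterial glycolipids. Clec4n stayed between 3.84 and 4.23 on all 8 arrays. Clec4d had 5.49 and 5.53 in Id2-GFP+ pre-CD8, against 5.15 and 5.60 in Id2-GFP- pre-CD8, and 5.72 and 6.16 in Id2-GFP+ CDP, against 5.52 and 5.51 in Id2-GFP- CDP. The 2 arrays of Id2-GFP+ CDP were the highest of the 8, and the other groups overlapped. Clec4e had 5.70 and 5.97 in Id2-GFP+ pre-CD8, against 6.20 and 5.46 in Id2-GFP- pre-CD8, and 5.61 and 7.12 in Id2-GFP+ CDP, against 5.68 and 4.80 in Id2-GFP- CDP. Replicate 2 of Id2-GFP+ CDP stood above the other 7 arrays. None of the 3 genes passed in any of the 7 contrasts without the brightness block. With it, Clec4d passed in Id2-GFP- pre-CD8 against Id2-GFP+ CDP (-0.57, adjusted p = 0.0466). The Clec4e reporter difference in CDP was 1.12 ± 0.50 (adjusted p = 0.915, and 0.0144 with the brightness set as a block).

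Adjacent genes of a run did not have the same values. In the Dectin-2 run the reporter difference in pre-CD8 was 4.08 for Clec4b1, 3.14 for Clec4a2, 0.93 for Clec4b2, 0.16 for Clec4n, 0.13 for Clec4d and 0.01 for Clec4e. In CDP it was 1.49, 3.83, 1.70, 0.05, 0.43 and 1.12 in the same order. Clec4b2, the DCAR paralog that is not in the set, did not pass in pre-CD8 (adjusted p = 0.156) or CDP (adjusted p = 0.0796). In the Dectin-1 run, Clec9a, the receptor for exposed actin of dead cells on the cDC1 lineage of dendritic cells, had a reporter difference of 4.29 ± 0.40 in pre-CD8 (adjusted p = 0.00102) and -0.02 ± 0.40 in CDP (adjusted p = 1.0). Its stage difference in Id2-GFP- cells was -3.41 ± 0.40 (adjusted p = 0.00638). That of Clec7a was -2.82 and that of Clec12a -0.48, the ends of the run as cut here.

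**Figure D3:**
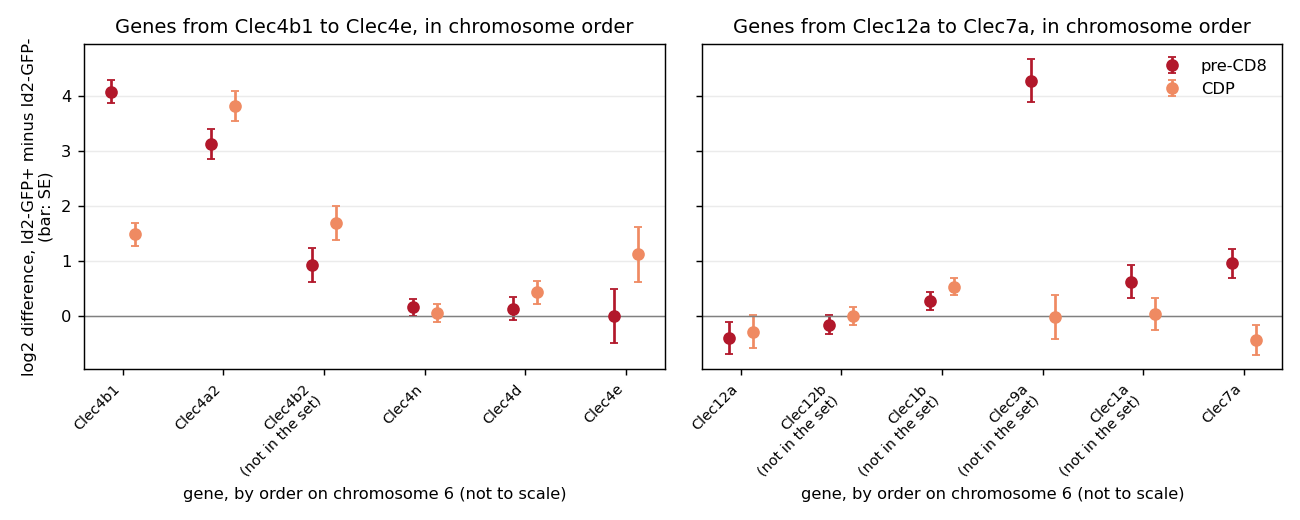
Log2 difference of Id2-GFP+ minus Id2-GFP- in pre-CD8 (dark) and CDP (light) for the genes of the Dectin-2 run (left) and the Dectin-1 run (right), in their order on chromosome 6, not to scale, with bars for the SE of the limma fit. In the left run Clec4b1 (4.08) and Clec4a2 (3.14) are highest in pre-CD8, and Clec4a2 (3.83) and Clec4b2 (1.70) in CDP, while in the right run Clec9a is at 4.29 in pre-CD8 and -0.02 in CDP.

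The mixed comparisons use the same arrays as those above, so they add no separate evidence. With Id2-GFP- pre-CD8 set against Id2-GFP+ CDP, 6 of 10 receptor genes were lower and 0 higher, where 2.81% of all genes were called lower. These 6 were Clec4a2 (-3.98), Cd209a (-3.90), Clec5a (-3.56), Clec7a (-2.38), Clec4b1 (-2.04) and Clec10a (-1.44), on the log2 scale. Clec10a no longer passed without replicate 1 of Id2-GFP- pre-CD8 (adjusted p = 0.0627). The brightness block gave 7 of 10 lower (9.88% of all genes), Clec4d being added. With Id2-GFP+ pre-CD8 set against Id2-GFP- CDP, Clec4b1 (3.53) and Clec4a2 (2.99) were higher, and Clec7a (-1.85) and Clec10a (-1.36) were lower. Of all genes, 1.39% were called higher and 0.401% lower there. The brightness block gave 4 higher and 3 lower receptors (6.97% and 8.85% of all genes), adding Cd209a, Clec5a (0.76, adjusted p = 0.045) and Clec12a. Cd209a was at 2.19 (adjusted p = 0.127, and 0.00203 with the block), and at 3.23 without replicate 2 of Id2-GFP- CDP (0.00578). The calls of Clec7a and Clec10a were lost without either array of Id2-GFP+ pre-CD8 or of Id2-GFP- CDP, with an adjusted p from 0.0656 to 0.125 for Clec7a and from 0.086 to 0.227 for Clec10a. The Clec10a call was also lost with the replicate block (0.0527).

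As a scale for the lists below, these are the calls over all 19938 genes. In pre-CD8 the reporter comparison called 711 higher and 538 lower (2197 and 2625 with the brightness block). In CDP it called 119 and 0 (735 and 831). Between stages the calls were 206 and 118 among Id2-GFP- cells (1161 and 1325), and 0 and 0 among Id2-GFP+ cells (194 and 220). No list was tested against these shares. Of 13 other C-type lectins of the Dectin-1 and Dectin-2 runs and their surroundings, 1 was higher in Id2-GFP+ cells in pre-CD8 (Clec9a) and 1 in CDP. With the brightness set as a block, 5 were higher and 2 lower in pre-CD8, and 5 were higher and 1 lower in CDP. The second in the fit without the block was Olr1, the oxidised lipoprotein receptor next to Clec7a, with 2.48 ± 0.38 in CDP (adjusted p = 0.0362) and 1.51 ± 0.38 in pre-CD8 (adjusted p = 0.0597). Of 26 measured C-type lectins and related genes of other families, 2 were higher and 2 lower in Id2-GFP+ pre-CD8, and 0 of 26 passed in CDP. The block gave 3 higher and 3 lower in pre-CD8, and 5 higher and 2 lower in CDP. Those higher without it were Cd209e (1.68 ± 0.32, adjusted p = 0.0177), which is adjacent to Cd209a, and Selplg (0.78 ± 0.12, adjusted p = 0.00866), the ligand of P-selectin. Those lower without it were Cd72 (-2.71 ± 0.21, adjusted p = 0.000629), an ITIM receptor of B cells, and Cd69 (-3.37 ± 0.53, adjusted p = 0.00831), an early activation antigen. Cd209e had 7.08 and 6.32 in Id2-GFP+ pre-CD8, against 4.70 and 5.34 in Id2-GFP- pre-CD8, and its CDP difference was 0.77 ± 0.32 (adjusted p = 0.854). Cd209d, another paralog, had 0.93 ± 0.41 in pre-CD8 (adjusted p = 0.324) and 1.58 ± 0.41 in CDP (adjusted p = 0.312).

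The adaptors of the activating receptors were measured on the same arrays. Of 19 measured genes of the ITAM and Syk pathway, 3 were higher in Id2-GFP+ cells in pre-CD8 and 1 in CDP, and 2 were lower in pre-CD8 than in CDP among Id2-GFP- cells. With the brightness block 8 were higher and 1 lower in pre-CD8, 2 were higher in CDP, and 2 were higher and 4 lower between stages among Id2-GFP- cells. Tyrobp had 11.71 and 11.71 in Id2-GFP+ pre-CD8, against 10.12 and 10.32 in Id2-GFP- pre-CD8, and 11.85 and 11.70 in Id2-GFP+ CDP, against 11.37 and 11.67 in Id2-GFP- CDP. Fcer1g had 11.64 and 11.61 in Id2-GFP+ pre-CD8, against 9.83 and 10.46 in Id2-GFP- pre-CD8, and 11.73 and 11.77 in Id2-GFP+ CDP, against 11.31 and 11.66 in Id2-GFP- CDP. For both adaptors Id2-GFP- pre-CD8 was the low group and the other 3 groups lay close together.

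In pre-CD8 the reporter difference was 1.49 ± 0.17 for Tyrobp (adjusted p = 0.00224), 1.48 ± 0.23 for Fcer1g (adjusted p = 0.00758) and 2.20 ± 0.38 for Fgr, a Src-family kinase (adjusted p = 0.0122). In CDP it was 0.26 ± 0.17 for Tyrobp and 0.26 ± 0.23 for Fcer1g, neither past the threshold, and 2.33 ± 0.38 for Fgr (adjusted p = 0.045). The stage difference in Id2-GFP- cells was -1.30 ± 0.17 for Tyrobp (adjusted p = 0.0106) and -1.34 ± 0.23 for Fcer1g (adjusted p = 0.0302). Syk itself had -0.16 ± 0.29 in pre-CD8 and 0.16 ± 0.29 in CDP, and Card9, the scaffold below Syk, 1.12 ± 0.28 in pre-CD8 (adjusted p = 0.0543) and -0.03 ± 0.28 in CDP. None of 5 phosphatases of ITIM receptors passed in the reporter or stage comparisons by limma, while the brightness block called 3 higher in pre-CD8, 1 higher in CDP, and 1 higher and 1 lower between stages among Id2-GFP- cells. Ptpn6 had 0.60 ± 0.17 in pre-CD8 (adjusted p = 0.0817, and 0.00027 with the brightness set as a block).

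**Figure D4:**
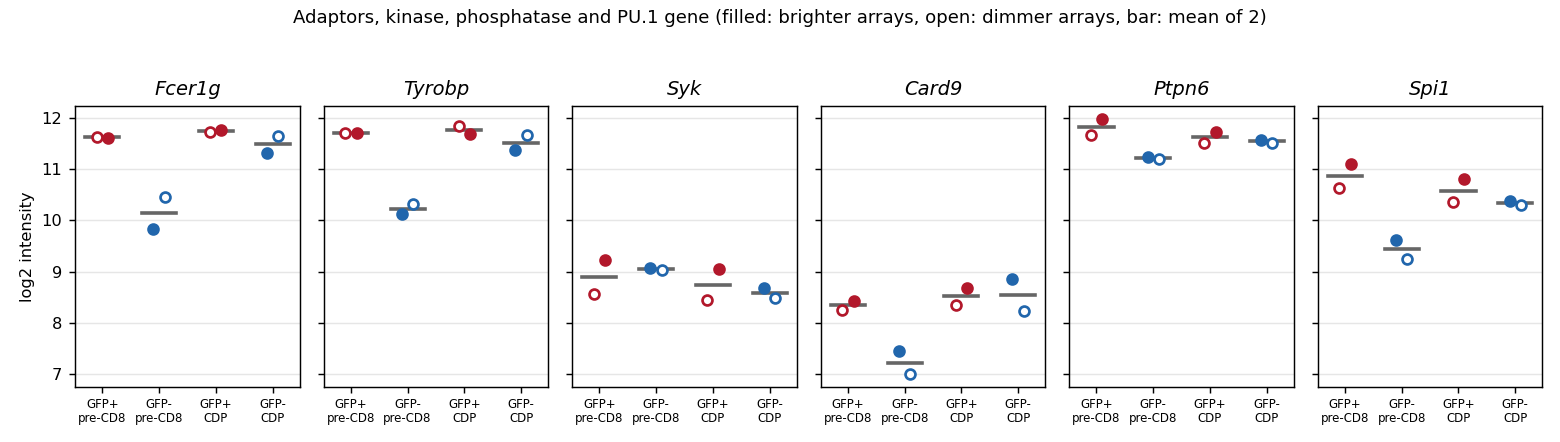
Log2 intensity of the adaptors Fcer1g and Tyrobp, the kinase Syk, the scaffold Card9, the phosphatase Ptpn6 and the PU.1 gene Spi1 on every array (filled for the brighter set, open for the dimmer set, bars are means of 2). Fcer1g and Tyrobp lie between 9.83 and 10.46 in Id2-GFP- pre-CD8 and between 11.31 and 11.85 in the other 3 groups.

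Among 16 genes of inflammasomes and cytokines downstream of these receptors, 1 was higher in Id2-GFP+ pre-CD8, and 0 passed in CDP or between stages. It was Pycard, the inflammasome adaptor ASC (1.00 ± 0.17, adjusted p = 0.0104). With the block 2 were higher and 2 lower in pre-CD8, 0 passed in CDP, and 2 were higher and 3 lower between stages among Id2-GFP- cells. Among 17 measured transcription factors of myeloid genes, 8 were higher and 2 lower in Id2-GFP+ pre-CD8, 3 were higher in Id2-GFP+ CDP (Id2, Batf3 and Cebpe), and 0 passed between stages. The list includes Id2, whose reporter defined the groups, so its own call is no separate result. The block gave 9 higher and 3 lower in pre-CD8, 7 higher and 3 lower in CDP, 2 higher and 6 lower between stages among Id2-GFP- cells, and 1 higher and 1 lower among Id2-GFP+ cells. Spi1, the gene of PU.1, had 10.64 and 11.11 in Id2-GFP+ pre-CD8, against 9.61 and 9.25 in Id2-GFP- pre-CD8, a difference of 1.44 ± 0.25 (adjusted p = 0.0117). In CDP it had 10.36 and 10.81 in Id2-GFP+ cells and 10.38 and 10.29 in Id2-GFP- cells, a difference of 0.25 ± 0.25 (adjusted p = 1.0). Klf4, a factor of monocyte differentiation, had 3.26 ± 0.42 in pre-CD8 (adjusted p = 0.0038) and 1.27 ± 0.42 in CDP (adjusted p = 0.583).

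Markers of other myeloid cells and of conventional dendritic cells moved with the reporter comparisons. Of 18 neutrophil and granule genes, 12 were higher and 1 lower in Id2-GFP+ pre-CD8, and 12 were higher in Id2-GFP+ CDP. Their summed intensity was 43480 to 50882 in Id2-GFP+ pre-CD8, 14317 to 19094 in Id2-GFP- pre-CD8, 63579 to 97891 in Id2-GFP+ CDP and 18736 to 31970 in Id2-GFP- CDP. Ly6g, which defines neutrophils, had log2 intensities of 7.66 and 8.05 in Id2-GFP+ pre-CD8, against 5.41 and 5.57 in Id2-GFP- pre-CD8, and 8.65 and 9.54 in Id2-GFP+ CDP, against 5.36 and 5.26 in Id2-GFP- CDP. The groups with high Clec4a2 and Clec5a also had the higher granule gene sums, but not every gene of the list followed. Mean Mpo was 10.52 in Id2-GFP+ pre-CD8 against 12.48 in Id2-GFP- pre-CD8, and 12.51 against 13.23 in CDP. Mean Ctsg was 8.02 against 9.61 in pre-CD8, and 10.76 against 11.68 in CDP. With the brightness block, 14 of 18 were higher and 3 lower in pre-CD8, and 13 higher and 2 lower in CDP. The part of neutrophils and other granule-bearing cells in the receptor values was not tested.

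Of 10 markers shared by conventional dendritic cells, 8 were higher and 1 lower in Id2-GFP+ cells in pre-CD8, and 4 were higher in CDP. Their summed intensity was 24693 to 33395 in Id2-GFP+ pre-CD8, 8962 to 9395 in Id2-GFP- pre-CD8, 9791 to 12600.2 in Id2-GFP+ CDP and 5943 to 6196 in Id2-GFP- CDP. Of 13 cDC1 markers, 8 were higher in Id2-GFP+ cells in pre-CD8 and 4 in CDP.

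The sum of monocyte and macrophage markers was lowest in Id2-GFP- pre-CD8. Of 13 measured, 7 were lower in pre-CD8 than in CDP among Id2-GFP- cells. Among Id2-GFP+ cells 0 of 13 passed between stages, where 0 of all genes passed. With the brightness block, 1 was higher and 6 were lower in that comparison. In pre-CD8, 5 were higher and 1 lower in Id2-GFP+ cells, and in CDP 2 were higher in Id2-GFP+ cells. Their summed intensity was 11388 to 11992 in Id2-GFP+ pre-CD8, 3327 to 3549 in Id2-GFP- pre-CD8, 15346 to 16774 in Id2-GFP+ CDP and 12638 to 13571 in Id2-GFP- CDP. The 13 cDC1 markers summed to 11855 to 18385 in Id2-GFP+ pre-CD8, 3823 to 4528 in Id2-GFP- pre-CD8, 6467 to 7942 in Id2-GFP+ CDP and 3745 to 4182 in Id2-GFP- CDP. Their sum was highest in Id2-GFP+ pre-CD8, as was Clec4b1. The 12 cDC2 markers summed to 7152 to 7406 in Id2-GFP+ pre-CD8 and 3289 to 3421 in Id2-GFP- pre-CD8. In CDP they summed to 7393 to 8041 in Id2-GFP+ cells and 4591 to 5767 in Id2-GFP- cells. Gene by gene, 2 of the 12 were higher and 1 lower in Id2-GFP+ pre-CD8, and 0 passed in CDP. The brightness block gave 4 higher and 2 lower in pre-CD8, and 4 higher in CDP. The median log2 difference was 0.159 in pre-CD8 and 0.248 in CDP, and a sum weighs the brightest genes most.

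Other lists ran the opposite way in pre-CD8. Of 11 measured B lineage markers, 7 were lower and 0 higher in Id2-GFP+ cells there. In CDP 0 of the B lineage and 0 of the early progenitor markers passed. The brightness block gave 2 B lineage and 3 early progenitor markers lower in Id2-GFP+ CDP, and 0 higher. The early progenitor sums of the reporter classes overlapped in CDP. The 11 measured B lineage markers summed to 974 to 1135 in Id2-GFP+ pre-CD8, 7158 to 9153 in Id2-GFP- pre-CD8, 822 to 1141 in Id2-GFP+ CDP and 1293 to 1398 in Id2-GFP- CDP. The 10 measured early progenitor markers, 6 of them lower in Id2-GFP+ cells in pre-CD8, summed to 4252 to 6102 in Id2-GFP+ pre-CD8, 11486 to 15873 in Id2-GFP- pre-CD8, 4795 to 7845 in Id2-GFP+ CDP and 7538 to 10828 in Id2-GFP- CDP. Both lists were highest in Id2-GFP- pre-CD8, where the 6 receptors that passed in any comparison had their lowest mean. The part of these cell types in the receptor values was not tested. No marker was at 0, since RMA values have no true zero.

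The genes whose values ran most like those of a receptor were taken as the 3 with the highest Pearson correlation over the 8 arrays, as a description without a test. All 8 arrays share the 4 groups and the brightness split, so high values are easily reached. For Clec4a2 they were Cd300lf (r = 0.995), an inhibitory receptor of myeloid cells, Lrg1 (0.995) and the lysozyme gene Lyz2 (0.989). Cd300lf lay between 7.84 and 8.67 on the Id2-GFP+ arrays and reached at most 6.51 on the Id2-GFP- arrays. For Clec5a they were Fcgr3, an Fc receptor that uses Fcer1g (0.993), Ly6a2 (0.987) and Hp (0.986). For Cd209a they were S100a4 (0.985), Lilra6 (0.978) and Dpep2 (0.970). S100a4 showed the same gap between the Id2-GFP- CDP arrays, with 8.20 in replicate 1 and 9.58 in replicate 2. For Clec4b1 they were Capzb (0.994), Shtn1 (0.991) and Adgra2 (0.989), of which Capzb spanned less than a log2 unit. The nearest gene was Bckdk for Clec7a (0.982), Slpi for Clec10a (0.970), Cox6c for Clec12a (0.979), Bst1 for Clec4d (0.964), Tnfsf14 for Clec4e (0.986) and Nalcn for Clec4n (0.962).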

How the data were processed

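RNA of 8 sorted samples in 4 groups of 2 was hybridised to Affymetrix gene arrays. The deposited table holds linear intensity values of 28853 probe sets. The authors made them by RMA, and Affymetrix Expression Console is named, with no versions, per the submitters' processing notes. RMA compresses low values, so differences of dim genes are understated. The design assumed log2 values, which were taken here from the linear table with no further normalization.

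Annotation of the platform gave 1 symbol to 21789 probe sets, several to 1621 and none to 5443. Entrez identifiers placed 21698 of the 1-symbol sets in RefSeq, which changed 0 symbols. Where a gene had several sets (999 genes), the one with the highest mean over 8 arrays was used, leaving 19938 genes.

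Tests used limma 3.58.1 in R 4.3.3 on all 8 arrays, with a mean for each group and an intensity trend. They were two-sided and adjusted by Benjamini-Hochberg over all genes, with 4 residual degrees of freedom and a prior of 4.19. The fit was run on simulated data with independent noise for each gene and changes in the CDP reporter comparison only. That simulation held no brightness split, so it does not show how the fit behaves under one. The number of arrays limits the precision. Folds are 2 to the power of log2 differences. The members and lists, and the tests, were chosen with earlier results of these data known. The text names all 10 members, Id2, up to 4 genes of each list with the smallest p and 3 similar genes per member; genes beside a member on a chromosome, Syk, Card9, Cd209d, Klf4, Flt3 and Csf1r were added for their position or role.

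Alternatives were quantile normalization, centring arrays on their median, leaving out dim genes, no intensity trend, every probe set, array brightness as a block, the replicate number as a block, and leaving out each array. Same-numbered arrays of opposite reporter class deviated in opposite directions (r from -0.69 to -0.63), and those of the same class together (0.69 and 0.71). With 2 arrays a group the deviations are mirror images. The signs thus show only which numbers share a brightness set, not whether numbers pair samples. Python 3.11.15 made the tables and figures.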

Additional observations from a re-analysis of the deposited data

Results flagged for a closer look

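Clec4b1 was singled out because its reporter difference was not the same at the 2 stages by a direct test. Id2-GFP+ cells exceeded Id2-GFP- cells by 4.08 on the log2 scale in pre-CD8 and by 1.49 in CDP, an interaction of 2.60 ± 0.29 (limma, adjusted p = 0.021). Both Id2-GFP+ pre-CD8 arrays were above both Id2-GFP+ CDP arrays (7.07 and 7.60 against 5.16 and 5.43), and both Id2-GFP- pre-CD8 arrays were below both Id2-GFP- CDP arrays (3.34 and 3.17 against 3.91 and 3.72). Without any 1 array the value stayed between 2.34 and 2.86 and the adjusted p between 0.0559 and 0.0976. The Id2-GFP- values lie under the olfactory median, and the Id2-GFP+ CDP values under the olfactory 95th percentile of 5.63. RMA understates differences at this dim end. Whether the 2 reporter differences were understated to the same degree was not tested. No group had enough arrays for a test of outlying samples.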

How the results depend on the processing

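Array brightness as a block raised the counts of receptors past the threshold: 5 in place of 3 in the CDP reporter comparison, 6 in place of 2 between stages in Id2-GFP- cells, 4 in place of 0 between stages in Id2-GFP+ cells, 7 in place of 4 for Id2-GFP+ pre-CD8 against Id2-GFP- CDP, and 2 in place of 1 in the interaction. Quantile normalization and centring on the median each gave 1 in Id2-GFP+ cells. Leaving out dim genes, which dropped Clec4b1, and the replicate block each gave 0 in the interaction. Leaving out 1 array gave 1 to 3 in the CDP reporter comparison, 3 to 4 in that of pre-CD8, 1 to 3 between stages in Id2-GFP- cells, 0 to 0 in Id2-GFP+ cells, 2 to 4 for Id2-GFP+ pre-CD8 against Id2-GFP- CDP, 5 to 6 for Id2-GFP- pre-CD8 against Id2-GFP+ CDP, and 0 to 0 in the interaction. The causes were not tested.

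No receptor difference past the threshold changed sign in the alternatives run. Leaving out 1 array, the CDP reporter difference ran from -0.389 to 0.044 for Clec10a, -0.68 to 0.11 for Clec12a and -0.14 to 0.24 for Clec4n, and that of pre-CD8 from -0.089 to 0.356 for Clec4d and -0.36 to 0.37 for Clec4e. The stage difference ran from -0.35 to 0.05 for Clec4a2 and -0.359 to 0.086 for Clec4d in Id2-GFP- cells, and from -1.28 to 0.23 for Clec4e and -0.20 to 0.19 for Clec4n in Id2-GFP+ cells. The last was 0.025 after quantile normalization and 0.036 after centring. The interaction ran from -0.30 to 0.59 for Clec5a and from -0.27 to 1.80 for Cd209a.

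Same-numbered arrays fell in the same brightness set only within a reporter class, and no label says that numbers pair samples. With the replicate block, 3 calls were lost: Clec4b1 in the CDP reporter comparison (adjusted p = 0.0574) and in the interaction (0.0791), and Clec10a for Id2-GFP+ pre-CD8 against Id2-GFP- CDP (0.0527). The crossed pairing, chosen after seeing the data, is the same fit as the brightness block. Over all genes, the CDP and pre-CD8 reporter, Id2-GFP- stage, Id2-GFP+ stage, the mixed comparisons in the order above and the interaction had 119, 1249, 324, 0, 357, 975 and 29 calls. The brightness block gave 1566, 4822, 2486, 414, 3154, 4376 and 1492, quantile normalization 207, 2567, 858, 24, 917, 2101 and 202, and the replicate block 85, 838, 157, 0, 208, 642 and 6. Quantile normalization moved the split of higher and lower calls from 206 and 118 to 416 and 442 between stages in Id2-GFP- cells, from 277 and 80 to 563 and 354 for Id2-GFP+ pre-CD8 against Id2-GFP- CDP, and from 7 and 22 to 101 and 101 in the interaction. Centring gave 224 and 298 between stages in Id2-GFP- cells, and 24 and 25 in the interaction. The brightness block moved the CDP reporter split from 119 and 0 to 735 and 831. Leaving out 1 array gave 35 to 126, 466 to 1313, 77 to 326, 0 to 1, 77 to 370, 436 to 867 and 2 to 15 calls in the same 7 comparisons, so the shares of all genes beside the receptor counts move as well.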
